A study of Mus musculus with 16 samples.

Results

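Mouse neural crest stem cells that had been primed towards glia or towards neurons were compared with unprimed cells and cells primed towards mesenchyme, to describe what both neural conditions had in common and what mesenchymal priming lacked. The comparison used 16 arrays of 16 in the series, 8 on each side. The neural side held 4 glia-primed arrays and 4 neuron-primed arrays, which are titled Glia and Autonomic, and the other side held 4 unprimed arrays, titled NCSCs, and 4 mesenchyme-primed arrays, titled Mesenchymal. Groups and replicate numbers came from the titles and the cell type labels. All 16 samples are labelled as primary mouse neural crest grown in the same stem cell medium, and all of them, the unprimed ones included, carry one treatment label, which names instructive growth factors. Which factors were used, for how long, and from embryos of which strain and age was not stated in the labels. Nothing in them ties a replicate to a culture or embryo of its own, so the p-values below cover the spread between these arrays, part of which may be technical.

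The pairing of the 4 groups into these 8 against 8 arrays was chosen by the measured log2 intensities of these same arrays. The contrast between the sides is therefore a description: its differences are given with standard errors, and its counts beside the share of all genes called, with no p-value for any gene. A log2 difference of 1 is a 2-fold difference in intensity. A gene was called where the Benjamini-Hochberg adjusted p of limma's moderated test over 18194 genes was under 0.05. Between the sides 161 genes were called (0.885% of 18194), of which 64 were higher (0.352%) and 97 lower (0.533%) on neural arrays. Among these, 88 also differed at least 2-fold in the same direction in each of the 4 single differences, glia-primed and neuron-primed arrays each against unprimed and mesenchyme-primed arrays. These 33 higher genes (0.181%) and 55 lower genes (0.302%) are called set apart below. Without regard to calls, the 8 neural arrays lay wholly above the other 8 for 15 genes (0.0824%) and wholly below them for 49 (0.269%). At the edge of this rule, Pmvk was just inside with a smallest single difference of -1.004 and Dst just outside with 0.991.

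Cells make cholesterol from acetyl-CoA through mevalonate, lanosterol and a series of sterol intermediates, and SREBP transcription factors raise the genes of this pathway, and those of fatty acid synthesis, when membrane sterol is low. Insig1, itself a target of these factors, holds them in the endoplasmic reticulum when sterol is plentiful. Glycolysis genes and a set of further genes, such as Bnip3 and Pdk1, are raised by hypoxia-inducible factors when oxygen is scarce. Neural crest cells migrate from the dorsal neural tube and can form peripheral glia, autonomic and sensory neurons, smooth muscle and other mesenchyme.

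On neural arrays 16 of 17 measured cholesterol synthesis genes, 9 of 15 fatty acid synthesis genes, 10 of 18 glycolysis genes and 4 of 20 hypoxia-response genes were called lower, and none of these lists had a gene called higher. The count for glycolysis was 4 when arrays were centred on housekeeping genes. Cpm, Hbegf, Unc5b, Dhrs3, Cryab and Spsb1 were among the genes that were higher. Of the markers of glia and Schwann cells only Cryab, which was higher, and Ngfr, which was lower, were set apart. Of those of autonomic neurons none was.

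**Figure D1:**
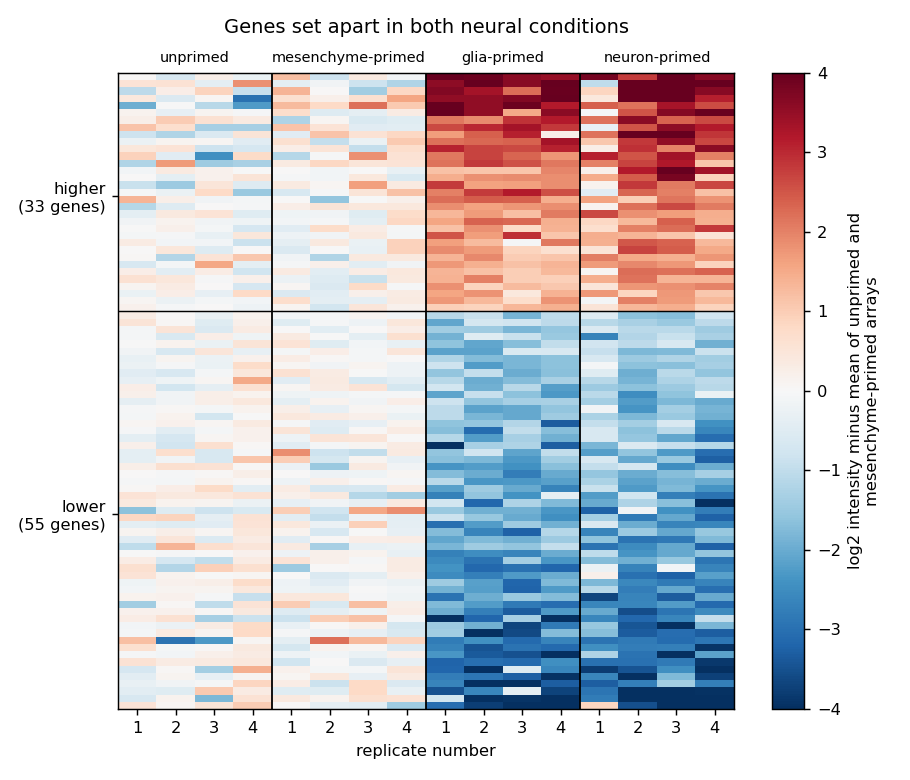
Log2 intensity of the 88 set-apart genes (vertical axis, 1 line per gene, ordered by the difference between the sides) on the 16 arrays (horizontal axis, replicate number within each group), shown as the difference from the gene's mean over unprimed and mesenchyme-primed arrays. Red is higher and blue lower, with the scale ending at 4 in either direction; neuron-primed replicate 1 is paler than the other neural arrays over the 33 higher genes.

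The median log2 intensity of an array was 3.05 to 3.15, and no 2 arrays held identical values. Neuron-primed replicate 1 stood apart from its group: on the first principal component it lay at -39.7, among the unprimed arrays, with the other neuron-primed arrays between 28.9 and 57.3, and its Sox10 was 4.30 against 8.07 to 8.27. Its mean over 15 markers of neural tube progenitors, the tissue that crest leaves, was 6.47 against 4.25 to 4.73 on the other neuron-primed arrays; unprimed replicate 4 was at 6.72 and mesenchyme-primed replicate 3 at 5.90. Without neuron-primed replicate 1, 301 genes were called between the sides, 139 higher and 162 lower, and 152 of the 161 genes were among them; 134 genes were set apart, 84 of the 88 among them. The 3' to 5' log2 ratio of the Gapdh control, a sign of RNA quality, was 2.90 ± 0.306 (SD, n = 8) on neural and 2.65 ± 0.377 (n = 8) on other arrays, and the Xist level, which depends on the sex of the embryos, was 5.77 ± 3.32 against 8.78 ± 2.88. A single group carried the gap in the Gapdh ratio, which was 2.35 in unprimed cells against 2.85 to 2.96 in the other groups, with mesenchyme-primed cells at 2.96. Mean Xist was 3.63 in glia-primed cells, at 2.61 to 5.34 by array, against 7.92 to 9.30 in the others. Low values were not confined to glia-primed cells. Neuron-primed replicate 1 was at 3.15, with the rest of its group at 7.55 to 10.58, and mesenchyme-primed replicate 2 was at 2.68. The part of these measures in the results was not tested beyond refits with each as a covariate, which called 137 and 126 genes, 101 and 101 of them among the 161.

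The labelled cell types were set against their markers. Sox10, the transcription factor that marks crest and glia, lay above the array median on all 16 arrays, at group means of 7.85 ± 1.01 (SD, n = 4) in unprimed, 8.84 ± 0.58 in mesenchyme-primed, 7.59 ± 0.698 in glia-primed and 7.22 ± 1.95 in neuron-primed cells. Of 28 measured glia and Schwann cell genes, 19 had a mean above the median gene in glia-primed cells and 9 a mean below it, as in unprimed cells (19 and 9). The mean of the list was 5.27 to 5.73 on glia-primed arrays and 5.22 to 5.79 on unprimed arrays. Cryab at 8.48, Cnp at 7.24 and Ngfr at 7.20 were among the former, while the markers of mature glia Mbp at 2.89, S100b at 3.47 and Gfap at 2.89 lay at or near the array medians. Of 25 measured autonomic neuron genes, 11 lay above the median gene in neuron-primed cells and 14 below it, against 9 and 16 in unprimed cells. Sox11 at 10.27 and Stmn2 at 6.01 were the highest, and of the defining markers Phox2a was at 2.28 and Th at 2.74, while Tubb3, a tubulin of neurons and their precursors, was at 10.19 ± 0.337 against 8.93 to 9.73 in the other groups. Between the sides Cryab of the glia and Schwann cell genes was called higher and Ngfr and Cnp lower (list median -0.02); Cnp was lowest in neuron-primed cells, and its call was lost in 19 of 28 other settings. Of the autonomic neuron genes 0 were called by limma (1 at an unadjusted p under 0.05, median 0.06), against 1846 of all 18194 genes at such a p (10.1%) and a median of 0.01. The labels are used here for how the cells were primed and not for a finished cell type.

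Of the 20 cholesterol synthesis genes on the list, 17 were measured, and 16 of them were called lower on neural arrays, 15 of these set apart. The median difference of the 17 was -2.04, and Ebp was not called (-1.41, SE 0.41). The list mean per array was 8.83 to 9.20 on unprimed arrays and 8.72 to 8.77 on mesenchyme-primed arrays, against 6.21 to 6.98 on glia-primed and 6.50 to 7.41 on neuron-primed arrays, so that the 8 neural arrays lay below the other 8, with neuron-primed replicate 1 the highest among them. Without that array 15 of the 17 were called lower. Hmgcs1, which makes the precursor of mevalonate at the head of the pathway, differed by -1.57 (SE 0.26).

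The kinases that act on mevalonate had the smallest differences of the called genes: Mvk differed by -1.17 (SE 0.25) and Pmvk by -1.29 (SE 0.17). Mvd, which turns the mevalonate product into the first isoprene unit, read 8.80, 8.56, 8.58 and 8.64 on the 4 unprimed arrays, 7.44, 8.23, 7.65 and 7.89 on mesenchyme-primed arrays, 5.02, 5.22, 5.11 and 5.77 on glia-primed arrays and 5.23, 5.22, 5.40 and 4.37 on neuron-primed arrays. The highest neural value lay below the lowest of the other arrays, and the difference was -3.06 (SE 0.17). Its probe set can match other genes, and with such probe sets left out the difference was -2.64 and still called. Idi1, which isomerises that unit, differed by -1.90 (SE 0.18).

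Sqle, the squalene epoxidase that is one of the controlled steps, read 9.17, 9.10, 9.20 and 9.38 on unprimed arrays, 9.16, 8.95, 8.96 and 9.21 on mesenchyme-primed arrays, 7.41, 7.17, 6.38 and 7.13 on glia-primed arrays and 7.61, 7.16, 7.45 and 7.81 on neuron-primed arrays. Unprimed and mesenchyme-primed values overlapped, and the neural values did not reach them (difference -1.88, SE 0.15). Lss, which closes the squalene ring to lanosterol, differed by -3.20 (SE 0.33), and Cyp51, which takes the first methyl group off lanosterol, by -2.10 (SE 0.18).

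Among the enzymes that turn lanosterol into cholesterol, Nsdhl, a sterol dehydrogenase, read 8.72, 7.98, 8.10 and 8.46 on unprimed arrays, 7.35, 8.22, 8.14 and 7.52 on mesenchyme-primed arrays, 5.39, 4.61, 5.11 and 4.96 on glia-primed arrays and 5.62, 5.29, 5.32 and 4.13 on neuron-primed arrays. The 2 sides were separated by more than 1 log2 unit (difference -3.01, SE 0.22). Dhcr7, the reductase of the final step, differed by -3.03 (SE 0.37) and Msmo1, a sterol methyl oxidase, by -2.79 (SE 0.38).

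**Figure D2:**
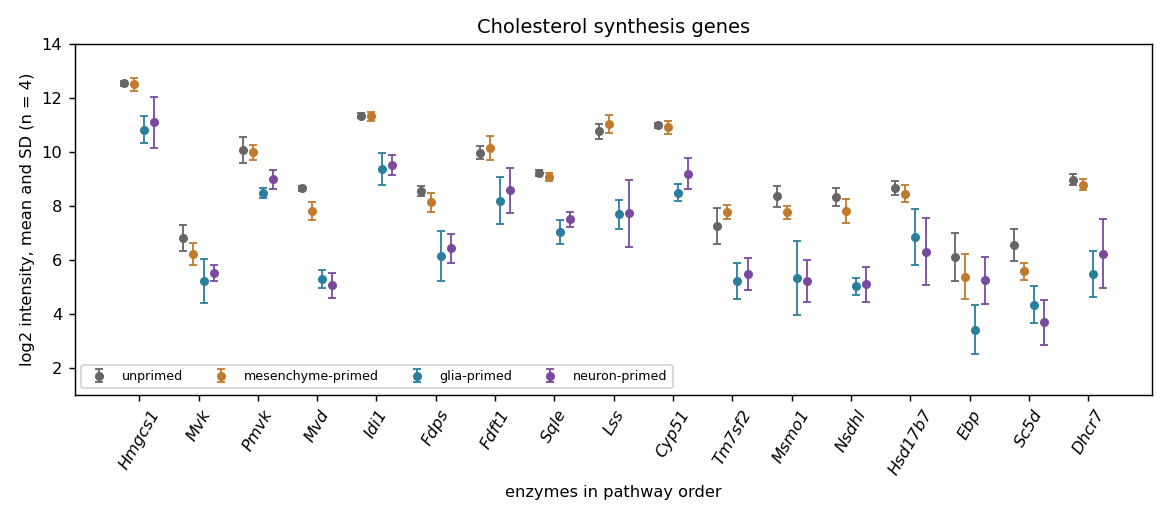
Group means of log2 intensity (vertical axis) with SD (bars, n = 4 arrays) for the 17 measured cholesterol synthesis genes in pathway order (horizontal axis). For each of the 17 genes the unprimed and mesenchyme-primed means lie above both neural means, by the least for Ebp; the largest difference between the sides is that of Lss, -3.20.

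Of 15 measured genes of sterol regulation and transport, only 2 were called, both lower, and the median difference was -0.06. Insig1 read 9.44, 9.44, 9.32 and 9.66 on unprimed arrays, 8.75, 8.93, 9.11 and 9.56 on mesenchyme-primed arrays, 7.31, 6.54, 5.94 and 6.998 on glia-primed arrays and 7.26, 5.74, 6.36 and 6.74 on neuron-primed arrays. Its 8 neural values lay at least 1 log2 unit below the other 8 (difference -2.66, SE 0.23). Stard4, which carries cholesterol between membranes, differed by -2.78 (SE 0.51). Srebf2, which encodes the main activator of cholesterol synthesis, differed by -1.09 (SE 0.35) and was not called, and Abca1, the sterol exporter, differed by 1.12 (SE 0.51) and was not called.

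Of 15 fatty acid synthesis genes 9 were called lower, 6 of them set apart, with a median difference of -1.22. Scd1 and Scd2, the desaturases that put the first double bond into saturated fatty acids, differed by -2.30 (SE 0.23) and -2.32 (SE 0.25). Scd1 read 9.50, 9.86, 9.91 and 10.42 on unprimed arrays, 9.48, 9.22, 9.54 and 9.44 on mesenchyme-primed arrays, 8.26, 7.50, 6.51 and 7.90 on glia-primed arrays and 7.87, 7.09, 6.85 and 7.04 on neuron-primed arrays, with no overlap between the sides. Elovl6, a fatty acid elongase, differed by -1.63 (SE 0.30), with 2 of its 3 probe sets lower (-2.02 to 0.16). Fasn, the fatty acid synthase, differed by -1.35 (SE 0.22) and Acly, which supplies cytosolic acetyl-CoA, by -0.82 (SE 0.16). With the Xist level as a covariate 5 of the 15 were called lower.

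SREBP factors bind sterol regulatory elements, and the letters TCACNCCAC of such an element were searched on both strands in RefSeq windows from 250 bases before to 50 bases after each gene's start (build GRCm38.p6), a search chosen after the values were seen. It was found in 1.24% of 32851 windows of all genes and in 1 of 17 windows (5.88%) of the 14 cholesterol genes matched, that of Hmgcs1. It was in 0 of 14 windows of fatty acid synthesis genes and in 2 of 27 windows of glycolysis genes (7.41%). The Hmgcs1 stretch is printed because its gene heads the pathway, with the element in capitals, which begins 137 bases before the start (chr13:119690179-119690258, plus strand).
Hmgcs1: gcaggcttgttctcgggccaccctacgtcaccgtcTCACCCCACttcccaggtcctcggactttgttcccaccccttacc
A match is a description of the letters and not a bound site, and the other windows only lack these exact letters.

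Of 18 measured glycolysis genes 10 were called lower on neural arrays, 5 of them set apart, with a median difference of -0.92. The list mean per array was 8.73 to 9.57 on unprimed and 9.11 to 9.38 on mesenchyme-primed arrays, against 7.74 to 8.34 on glia-primed and 7.97 to 8.14 on neuron-primed arrays, without overlap between the sides. The differences were uneven along the pathway. Slc2a3, a glucose transporter typical of neurons, differed by -3.25 (SE 0.39, on a probe set that can match other genes, or -2.30 on another) and Slc2a1, the widely expressed glucose transporter, by -1.41 (SE 0.26). Slc16a3, which exports the lactate that glycolysis yields, differed by -3.13 (SE 0.51).

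Pfkl, a subunit of the enzyme that commits glucose to glycolysis, read 8.94, 9.88, 8.85 and 9.70 on unprimed arrays, 8.94, 9.44, 9.67 and 9.70 on mesenchyme-primed arrays, 7.32, 7.61, 7.47 and 7.92 on glia-primed arrays and 7.77, 6.44, 6.53 and 7.62 on neuron-primed arrays. All 8 neural values lay below the other 8 (difference -2.06, SE 0.24, and -2.06 to -0.57 over its 3 probe sets). The abundant enzymes of the lower pathway had smaller differences with tight errors: Tpi1 differed by -1.39 (SE 0.15), Ldha, the lactate dehydrogenase, by -0.94 (SE 0.18), Pgk1 by -0.70 (SE 0.11) and Pgam1 by -0.57 (SE 0.09). Gapdh differed by -0.28 (SE 0.09), Hk2, a hexokinase, by -0.55 (SE 0.19), and neither was called.

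The count for glycolysis stayed at 10 with quantile normalization and with cyclic loess. It was 9 with the replicate number as a block, 8 with the Gapdh ratio and 7 with the Xist level as a covariate. With arrays scaled by housekeeping genes it was 4. Pgk1 and Tfrc, which are among 12 measured housekeeping genes, were themselves called lower, and the housekeeping median was -0.27. Pgk1 is on the glycolysis list too, so this scaling takes out part of the difference that it is used to examine. When each array was centred on these genes, the median of all genes moved to 0.26, glycolysis had 4 genes called lower instead of 10, and the 248 genes called between the sides split into 191 higher and 57 lower, against 64 and 97 with the deposited scaling. Of the set-apart genes 83 were then higher and 33 lower.

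Of 20 measured hypoxia-response genes 4 were called lower, all of them set apart, and the median difference was -0.71. Bnip3, a mitochondrial protein that promotes the removal of mitochondria, read 7.88, 8.69, 6.74 and 9.13 on unprimed arrays, 8.91, 8.68, 9.17 and 9.10 on mesenchyme-primed arrays, 7.78, 4.08, 4.61 and 3.95 on glia-primed arrays and 5.73, 3.66, 3.00 and 3.68 on neuron-primed arrays. Glia-primed replicate 1 lay above unprimed replicate 3, and the other 7 neural arrays lay below all others (difference -3.98, SE 0.56). Pdk1, which keeps pyruvate out of mitochondria, read 5.76, 7.22, 6.13 and 7.70 on unprimed arrays, 8.17, 6.55, 8.36 and 7.41 on mesenchyme-primed arrays, 5.40, 4.91, 4.32 and 4.10 on glia-primed arrays and 4.55, 4.56, 4.94 and 4.05 on neuron-primed arrays. The sides did not overlap, though the gap was small (difference -2.56, SE 0.33, and -4.08 to -0.13 over its 4 probe sets).

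Ak4, a mitochondrial adenylate kinase, differed by -1.60 (SE 0.18). P4ha1, a collagen prolyl hydroxylase subunit, differed by -2.03 (SE 0.44), and its call was lost in 20 of 28 other settings. Other genes of the list did not lie with them: Vegfa, the vascular growth factor, differed by -0.18 (SE 0.18), and Adm, adrenomedullin, was at 6.45 in glia-primed and 10.20 in neuron-primed cells, with 9.74 and 11.72 in unprimed and mesenchyme-primed cells. The hypoxia list mean was also lowest on neural arrays, with 5.61 to 5.87 in glia-primed and 5.63 to 6.02 in neuron-primed cells, and its unprimed arrays, at 6.14 to 6.70, lay mostly below the mesenchyme-primed arrays, at 6.69 to 7.48. Between mesenchyme-primed and unprimed cells limma called 0 of its 20 genes, with 4 at an unadjusted p under 0.05 (median difference 0.57).

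**Figure D3:**
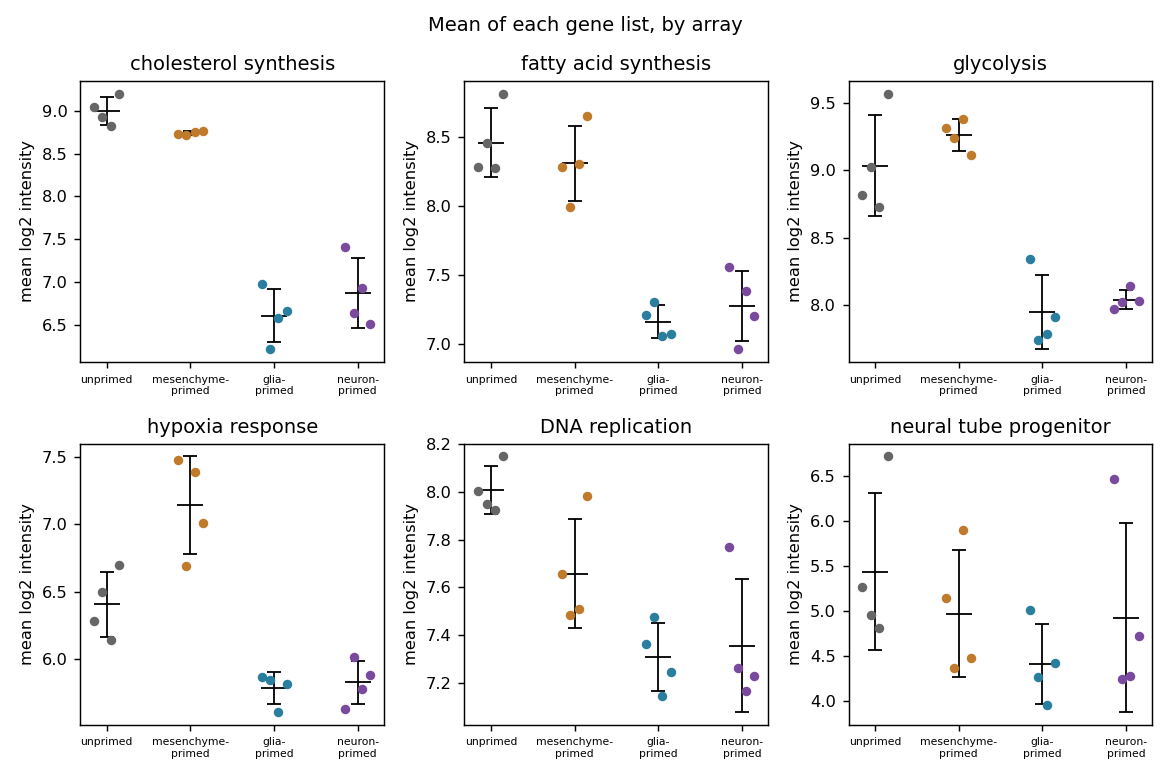
Mean log2 intensity of 6 gene lists (vertical axes, each panel with its own range) on each array (points), with the group mean and SD (bars, n = 4 arrays), for unprimed, mesenchyme-primed, glia-primed and neuron-primed cells (horizontal axis). The neural arrays lie below the others without overlap for cholesterol synthesis, fatty acid synthesis, glycolysis and hypoxia response, overlap them for DNA replication, and neuron-primed replicate 1 stands out for neural tube progenitor genes at 6.47.

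Hypoxia-inducible factors bind the core ACGTG, which was searched in the same windows on both strands, again after the values were seen. It was found in 19.6% of all windows, in 16 of 27 windows of the 17 glycolysis genes matched (59.3%) and in 15 of 27 windows of the 18 hypoxia genes matched (55.6%). Both lists were compiled from genes known to answer to low oxygen or to carry out glycolysis, so these shares describe the lists and not the difference on the arrays. Over the set-apart genes the share was 24% of 50 windows for lower genes and 29.7% of 37 windows for higher genes. The 5 stretches below belong to genes that were set apart and are printed for the position of the core, in capitals, relative to the start: chr7:138909571-138909650 (minus strand) for Bnip3, chr4:101419453-101419532 (plus) for Ak4, chr10:59323216-59323295 (plus) for P4ha1, chr4:119108665-119108744 (plus) for Slc2a1 and chr11:120948987-120949066 (plus) for Slc16a3, all in GRCm38.p6.
Bnip3: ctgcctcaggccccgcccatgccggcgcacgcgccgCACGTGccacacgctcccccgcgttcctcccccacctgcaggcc
Ak4: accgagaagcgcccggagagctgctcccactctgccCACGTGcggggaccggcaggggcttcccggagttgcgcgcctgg
P4ha1: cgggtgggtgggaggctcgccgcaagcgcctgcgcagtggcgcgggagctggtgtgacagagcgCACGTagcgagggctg
Slc2a1: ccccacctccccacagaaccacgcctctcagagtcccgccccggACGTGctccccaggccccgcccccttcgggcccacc
Slc16a3: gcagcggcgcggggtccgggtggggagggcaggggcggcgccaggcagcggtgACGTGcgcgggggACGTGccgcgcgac
The core begins 107 bases before the start in Bnip3, 213 in Ak4, 16 in P4ha1, 36 in Slc2a1 and, for the nearer of both matches, 14 in Slc16a3. In Bnip3 and Ak4 the capitals CACGTG read the same on either strand, so that the core matches both. Only genes with a match before the start could be printed. For Slc2a3, Pfkl, Tpi1 and Pdk1, which are on the same lists and were also set apart, no match was found.

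Of the 10 largest falls among set-apart genes, 3 were outside the lists above: Cxcr4, Cers4 and Ccdc25. Cxcr4, the chemokine receptor that guides migrating crest cells, read 9.33, 8.87, 9.31 and 9.79 on unprimed arrays, 8.78, 8.43, 8.36 and 7.37 on mesenchyme-primed arrays, 5.73, 5.02, 3.20 and 2.63 on glia-primed arrays and 9.65, 5.26, 3.00 and 3.86 on neuron-primed arrays. Neuron-primed replicate 1 lay with the unprimed arrays, and the difference of -3.99 (SE 0.77) was -4.69 (SE 0.47) without it. The call was lost in 6 of 28 other settings. Cers4, a ceramide synthase, differed by -3.37 (SE 0.47), or by -1.56 as the mean of its probe sets. Ccdc25 differed by -2.85 (SE 0.52), or by -1.03 with 16 added to each value before the logarithm, when it was not called. On neural arrays Ccdc25 lay below the array medians, at 0.87 to 1.57. It read 5.19, 1.03, 1.69 and 4.08 on unprimed arrays and 3.61 to 6.19 on mesenchyme-primed arrays. Unprimed replicate 2 thus lay among the neural values. Ngfr had a smaller difference than Cxcr4, Cers4 and Ccdc25. This low-affinity neurotrophin receptor, used to isolate crest stem cells, read 9.37, 9.39, 9.20 and 8.32 on unprimed arrays, 9.65, 9.68, 9.18 and 9.06 on mesenchyme-primed arrays, 6.27, 7.29, 7.74 and 7.50 on glia-primed arrays and 5.57, 6.58, 5.91 and 7.22 on neuron-primed arrays. The sides did not overlap (difference -2.47, SE 0.27), and the mean of its 3 probe sets differed by -1.50.

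**Figure D4:**
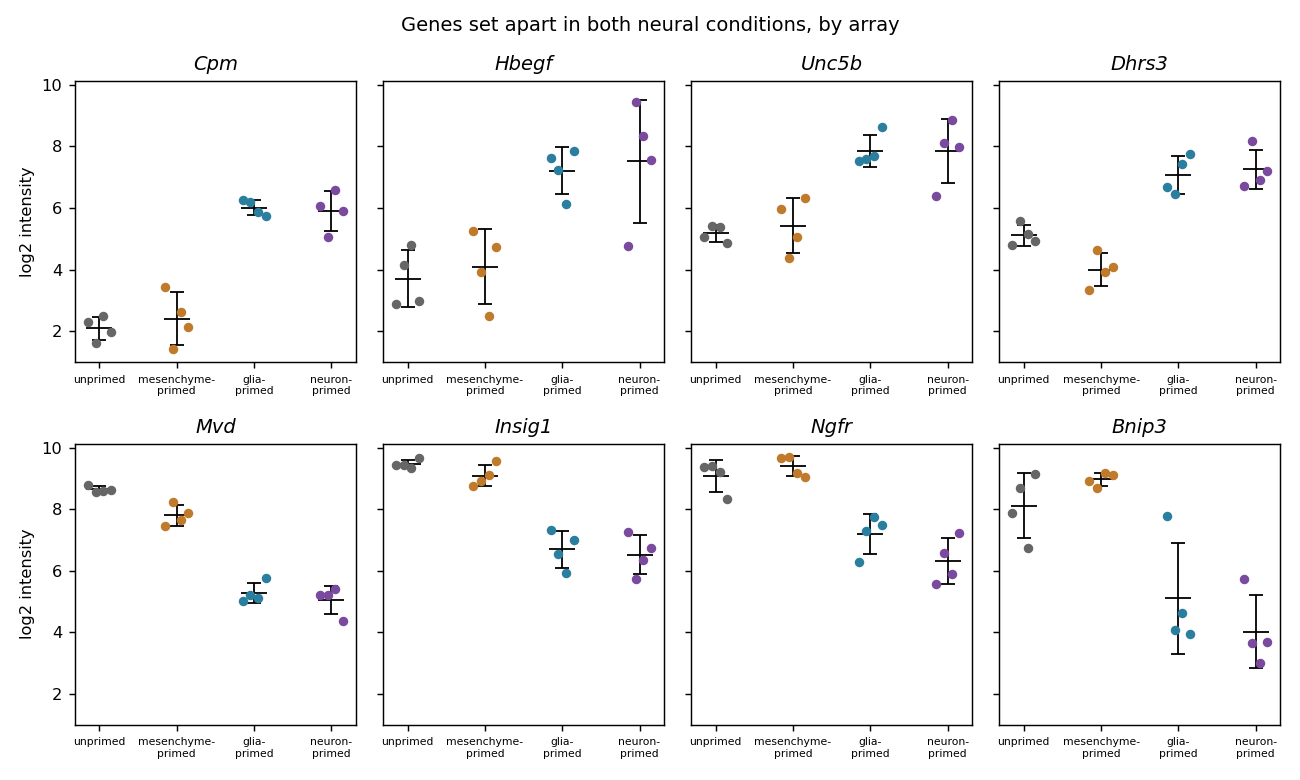
Log2 intensity (vertical axis) of 4 higher and 4 lower set-apart genes on each array (points), with the group mean and SD (bars, n = 4 arrays), by group (horizontal axis). Cpm, Unc5b, Dhrs3, Mvd, Insig1 and Ngfr do not overlap between the sides, while neuron-primed replicate 1 at 4.77 for Hbegf and glia-primed replicate 1 at 7.78 for Bnip3 lie among the other side's arrays.

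Among the higher genes, Cpm, a membrane carboxypeptidase that trims peptides at the cell surface, had the largest difference among set-apart genes. It read 2.30, 1.62, 2.48 and 1.98 on unprimed arrays, 3.45, 1.42, 2.61 and 2.15 on mesenchyme-primed arrays, 6.28, 6.18, 5.88 and 5.73 on glia-primed arrays and 6.07, 5.05, 6.59 and 5.91 on neuron-primed arrays. The neural arrays lay more than 1 log2 unit above the others (difference 3.71, SE 0.28). Its level on the other side was at or below the array medians, so the size is rough, and it was 1.90 with 16 added to each value.

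Hbegf, an EGF-family ligand, read 2.87, 4.16, 4.79 and 3.00 on unprimed arrays, 5.25, 3.91, 2.50 and 4.75 on mesenchyme-primed arrays, 7.62, 7.22, 6.14 and 7.85 on glia-primed arrays and 4.77, 9.43, 8.33 and 7.55 on neuron-primed arrays. Apart from neuron-primed replicate 1, the neural arrays lay above the others (difference 3.46, SE 0.60). Unc5b, a receptor for netrin guidance cues, read 5.08, 5.41, 5.40 and 4.85 on unprimed arrays, 5.96, 4.36, 5.06 and 6.34 on mesenchyme-primed arrays, 7.52, 7.59, 7.68 and 8.63 on glia-primed arrays and 6.39, 8.12, 8.86 and 7.98 on neuron-primed arrays. The sides touched without overlap, 6.39 against 6.34 (difference 2.54, SE 0.35). Bmp5, a bone morphogenetic protein, differed by 2.60 (SE 0.54), a call lost in 16 of 28 other settings. Furin, a protease that matures growth factor precursors, and Alcam, a cell adhesion molecule, were set apart with smaller differences, 1.77 (SE 0.29) and 1.61 (SE 0.28).

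Dhrs3, which turns retinal back to retinol and so limits retinoic acid, read 4.79, 5.57, 5.16 and 4.92 on unprimed arrays, 3.33, 4.64, 3.93 and 4.07 on mesenchyme-primed arrays, 6.67, 6.45, 7.43 and 7.74 on glia-primed arrays and 6.73, 8.17, 6.93 and 7.20 on neuron-primed arrays. All neural values lay above the others (difference 2.61, SE 0.26). Rdh10, which works in the opposite direction and makes retinal, was called lower, at 4.00 ± 0.825 (SD, n = 4) in glia-primed and 6.44 ± 0.703 in neuron-primed cells against 7.88 ± 0.342 and 7.13 ± 0.446 in unprimed and mesenchyme-primed cells. It was not set apart. These were the only 2 of 19 measured retinoic acid genes called, and the median of the list was 0.03.

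Cryab, a small heat shock protein, differed by 3.38 (SE 0.57) and 2.21 as the mean of its 3 probe sets; Fgd5, an activator of the GTPase Cdc42, by 3.54 (SE 0.69); Cyp1b1, a monooxygenase, by 2.89 (SE 0.53), or 1.28 as the mean of its probe sets; and Sfxn3, a mitochondrial carrier, by 2.56 (SE 0.43). Fgd5 was at 2.89 on neuron-primed replicate 1 and at 7.95 to 8.71 on the other neuron-primed arrays, and without that array its difference was 4.23 (SE 0.29); its call was lost in 9 of 28 other settings. Of 24 measured stress response genes 3 were called higher, Cryab, Mthfd2 (0.85, SE 0.18, a call lost in 14 of 28 other settings) and Asns (0.76, SE 0.12), the last being the asparagine synthetase, with a list median of 0.28. Of 29 general neuronal genes 1 was called, Dpysl3, a collapsin response protein, which differed by 1.46 (SE 0.21) without overlap of the sides (list median -0.02). Map1b, a microtubule-binding protein that was also set apart, differed by 1.52 (SE 0.31).

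TGF-beta and BMP response genes were higher on neural arrays in small number. Of 19 measured TGF-beta response genes 2 were called higher, Pmepa1 and Spsb1, with a list median of 0.31. Of 22 BMP response genes 2 were called higher, Id3 and Msx2, with a median of 0.22. An unadjusted limma p under 0.05 was found for 9 (47.4%) and 9 (40.9%), against 10.1% of all genes. The TGF-beta list mean was 4.84 to 5.29 on unprimed and 5.59 to 6.41 on mesenchyme-primed arrays. The latter overlapped the neural arrays, at 5.80 to 6.66. Mesenchyme-primed minus unprimed cells had a median of 0.69 over the TGF-beta list. Id3, which blocks DNA binding by helix-loop-helix factors, read 6.94, 7.46, 6.69 and 6.98 on unprimed arrays, 6.93, 6.73, 6.48 and 7.07 on mesenchyme-primed arrays, 7.61, 8.62, 8.59 and 8.36 on glia-primed arrays and 7.55, 7.89, 8.10 and 7.80 on neuron-primed arrays. The sides did not overlap, by a small gap (difference 1.16, SE 0.17). Msx2, a homeobox factor, differed by 1.24 (SE 0.27), and its call was lost in 20 of 27 other settings. Spsb1, which marks a TGF-beta receptor for degradation, was at 3.77 ± 1.01 (SD, n = 4) in unprimed, 6.44 ± 0.612 in mesenchyme-primed, 8.77 ± 0.387 in glia-primed and 7.72 ± 0.478 in neuron-primed cells. The difference between the sides was 3.14 (SE 0.31), with mesenchyme-primed cells between unprimed and neural cells.

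For a fixed pairing of the groups, differences within each side do not depend on the difference between the sides, apart from the shared estimate of spread. Limma's test was used on them. The pairing was itself chosen by these same intensities, which can favour small differences within a side. The p-values below take no account of that choice. Between mesenchyme-primed and unprimed cells 4 of 18194 genes were called (0.022%), and 3 of the 161. Pmepa1, which TGF-beta induces and which dampens SMAD signalling, was the largest: it read 5.43, 3.95, 3.05 and 2.71 on unprimed arrays, 7.54, 7.50, 8.26 and 9.04 on mesenchyme-primed arrays, 8.66, 9.45, 9.17 and 9.44 on glia-primed arrays and 8.01, 9.45, 9.06 and 9.59 on neuron-primed arrays. Its mesenchyme-primed values overlapped the neural ones and not the unprimed ones (mesenchyme-primed minus unprimed 4.30, SE 0.54, limma adjusted p = 0.0203), so that it was higher in every primed group. As the mean of its probe sets the difference was 1.82 and was not called (limma adjusted p = 0.103).

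Sipa1l2, a regulator of Rap GTPases, had the same pattern, with group means of 5.20 ± 0.485 (SD, n = 4) in unprimed, 7.55 ± 0.363 in mesenchyme-primed, 7.66 ± 0.646 in glia-primed and 7.89 ± 0.549 in neuron-primed cells (mesenchyme-primed minus unprimed 2.35, limma adjusted p = 0.0465). Gpr17, an orphan receptor, was higher in mesenchyme-primed cells alone, at 4.36 to 6.09 against 2.26 to 3.26 on the other 12 arrays (2.02, limma adjusted p = 0.0465). Gins2, a replication factor, was lower in mesenchyme-primed than in unprimed cells (-1.81, limma adjusted p = 0.0465). The calls of Pmepa1, Sipa1l2 and Gins2 were lost in 6, 18 and 22 of 28 other settings and that of Gpr17 in 20 of 27. The count of 4 became 0 without unprimed replicate 3 or 4 or mesenchyme-primed replicate 2 or 3, 1 without glia-primed replicate 1 or 3 or neuron-primed replicate 1 or 4, and 2 without unprimed replicate 1, glia-primed replicate 2 or 4, neuron-primed replicate 2 or mesenchyme-primed replicate 1.

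Between glia-primed and neuron-primed cells 2 genes were called (0.011%), and 1 of the 161. Mef2c, a transcription factor of muscle, crest and neurons, read 6.71, 8.31, 8.21 and 6.53 on glia-primed arrays and 3.49, 3.06, 3.20 and 3.09 on neuron-primed arrays, with 6.18 to 7.61 on unprimed and 7.49 to 8.40 on mesenchyme-primed arrays. It was thus lower in neuron-primed cells and not in glia-primed cells (glia-primed minus neuron-primed 4.23, 95% interval 3.33 to 5.13, limma adjusted p = 0.00119), although it was called between the sides. Vat1l was higher in neuron-primed cells (-2.76, limma adjusted p = 0.0101). Both calls stood in each of the 28 other settings. Without neuron-primed replicate 1 the count was 7, of which 5 were among the 161: Mef2c, Zfp469 (-2.16, limma adjusted p = 0.00387), Rdh10 (-2.70, limma adjusted p = 0.0427), Vgf (-4.84, limma adjusted p = 0.0142) and Mycn (2.02, limma adjusted p = 0.0367). Zfp469, a zinc finger protein, is one of the 33 genes set apart as higher, at 4.17 ± 0.403 (SD, n = 4) in glia-primed and 5.51 ± 1.68 in neuron-primed cells against 2.92 ± 0.208 and 2.73 ± 0.147 in unprimed and mesenchyme-primed cells. The count was 5 without glia-primed replicate 1 and 4 without neuron-primed replicate 2.

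Vgf, a granule protein of neurons, was at 8.35 ± 1.97 (SD, n = 4) in neuron-primed cells and at 4.44 ± 1.21 in glia-primed cells, against 3.54 ± 0.966 and 2.94 ± 0.405 in unprimed and mesenchyme-primed cells, and was called higher between the sides (3.15, SE 0.58). Of 18 measured secretory granule genes it and Pcsk1n (0.53, SE 0.11, a call lost in 18 of 27 other settings) were called, with a list median of 0.11. Mycn, a growth-promoting transcription factor, was at 7.03 ± 0.444 in neuron-primed cells and at 8.83 ± 0.584, 9.11 ± 0.332 and 9.24 ± 0.354 in glia-primed, unprimed and mesenchyme-primed cells. For Vgf, Mycn and Mef2c the glia-primed mean thus lay nearer to the unprimed mean than the neuron-primed mean did. With all 16 arrays the differences of Vgf and Mycn between glia-primed and neuron-primed cells were not called (-3.91, limma adjusted p = 0.214, and 1.80, limma adjusted p = 0.116).

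For most of the 161 genes a difference within a side was neither called nor shown to be small. The 95% interval of mesenchyme-primed minus unprimed lay wholly between -1 and 1 for 52 of the 161 (32.3%, against 53.8% of all genes), and that of glia-primed minus neuron-primed for 55 (34.2%, against 55.4%). An unadjusted limma p under 0.05 was found for 29 of the 161 between mesenchyme-primed and unprimed cells (18%, against 7.7% of all genes). Between glia-primed and neuron-primed cells it was found for 38 (23.6%, against 6.24%). The 161 were called with the same estimate of spread, so their shares are not like for like with those of all genes. The median half-width of the 95% intervals was 0.772 for the 161 and 0.646 for all genes. The medians of both differences over the 161 were -0.01 and -0.04. A missing call does not show that the groups of a side were alike.

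**Figure D5:**
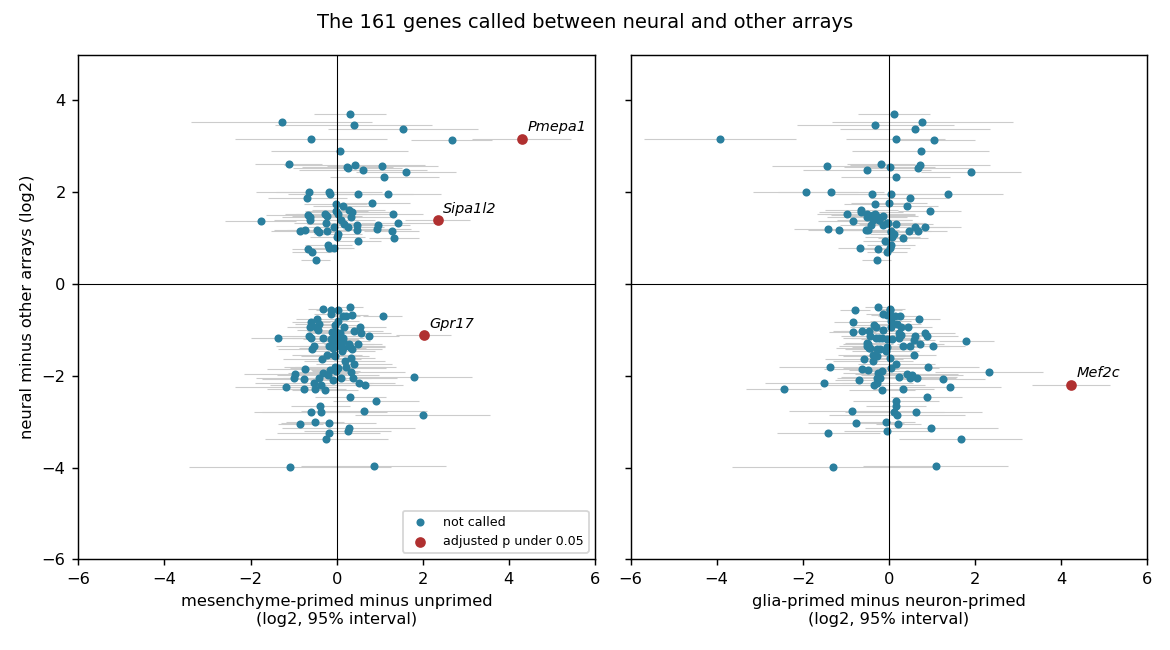
Difference between neural and other arrays (vertical axis, log2) against the difference within a side (horizontal axes, log2, with 95% intervals) for the 161 called genes, mesenchyme-primed minus unprimed on the left and glia-primed minus neuron-primed on the right. Most points lie near 0 on the horizontal axis; Pmepa1, Sipa1l2 and Gpr17 on the left and Mef2c on the right (red) have an adjusted p under 0.05.

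The pattern was also described on arrays that shared no control. Fitted on their own 8 arrays, glia-primed against unprimed cells had 60 genes called (0.33%) and neuron-primed against mesenchyme-primed cells 26 (0.143%). In both lists were 6 genes, 10% of the first list and 23.1% of the second: Cpm higher, and Idi1, Insig1, Mvd, Nsdhl and Sqle lower. In the other pairing, neuron-primed against unprimed cells had 17 genes called (0.0934%) and glia-primed against mesenchyme-primed cells 29 (0.159%), with 5 in both (29.4% and 17.2%), which are Cpm and, lower, Insig1, Mvd, Nsdhl and Sqle. Sqle, for example, differed by -2.19 (SE 0.23), -1.56 (SE 0.19), -1.71 (SE 0.18) and -2.05 (SE 0.24) in these 4 fits. Of the 34 genes called lower in glia-primed against unprimed cells, 34 were lower in neuron-primed against mesenchyme-primed cells, with a median of -1.15. Of its 26 higher genes 20 were higher there. In the reverse direction, 17 of the 18 genes called lower in neuron-primed against mesenchyme-primed cells were lower in glia-primed against unprimed cells. Only 4 of its 8 higher genes were higher there, with a median of -0.06. In the other pairing, 5 of 5 and 12 of 12 higher genes kept their direction, and 10 of 12 and 17 of 17 lower genes did. Over all 18194 genes, 8956 to 9324 were higher and 8870 to 9238 lower in each of the 4 fits. These fits describe the arrays from which the grouping was proposed and are no independent test of it. Both counts were 13 without neuron-primed replicate 1. The 6 became 0 without any of neuron-primed replicates 2 and 3 or any mesenchyme-primed array, 1 without neuron-primed replicate 4 and 3 without unprimed replicate 4 or glia-primed replicate 2. The 5 became 0 without unprimed replicate 3 or mesenchyme-primed replicate 3, 1 without another unprimed array, glia-primed replicate 3 or 4 or neuron-primed replicate 3, 2 without glia-primed replicate 2 or mesenchyme-primed replicate 4, and 3 without neuron-primed replicate 2 or 4 or mesenchyme-primed replicate 1 or 2.

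No gene of the proliferation lists was called between the sides, although DNA replication genes mostly had lower means on neural arrays. Of 33 DNA replication genes limma called 0 between the sides, with 17 (51.5%) at an unadjusted p under 0.05, against 10.1% of all genes, 29 of the 33 differences below 0 and a median of -0.38. Of 32 mitotic genes it called 0, with 3 (9.38%) at an unadjusted p under 0.05 and a median of -0.18. The mean of the DNA replication list overlapped between the sides, from 7.15 to 7.77 on neural arrays and from 7.48 to 8.15 on the others. Smooth muscle genes, the mesenchymal fate of crest, had 1 of 26 called, Cnn1 (1.17, SE 0.25, a call lost in 16 of 27 other settings), and matrix genes 1 of 31, Thbs1 (1.95, SE 0.40, a call lost in 16 of 28), both higher on neural arrays. Of the 26 smooth muscle genes 9 (34.6%) had an unadjusted limma p under 0.05, and 19 of the differences were above 0. Of the 31 matrix genes 6 (19.4%) had such a p. Of 22 immediate early genes and of 19 cartilage and bone genes limma called 0. At an unadjusted p under 0.05 these 2 lists had 4 (18.2%) and 4 (21.1%), against 10.1% of all genes. Crest progenitor genes had 2 of 28 called higher, Id3 and Msx2, and 2 lower, Ngfr and Mycn, with a median of -0.19.

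Markers of other cell types that the cultures could hold had 0 genes called by limma between the sides in each of 7 lists. Of 15 neural tube progenitor genes, 4 had an unadjusted limma p under 0.05 (26.7%, against 10.1% of all genes). Their differences were below 0 for 13 of the 15, with a median of -0.29. The other lists had 0 to 2 genes at such a p (0% to 15.4%). Summed linear intensity was 966 to 3703 on the other 8 arrays and 1114 to 5778 on neural arrays for the neural tube progenitor genes, with the highest value on neuron-primed replicate 1. For 11 melanocyte genes it was 52.2 to 89.2 on neural and 54.8 to 70.6 on other arrays, for 13 endothelial genes 93.9 to 197 and 74.4 to 133, and for 12 macrophage and blood genes 70.6 to 155 and 70.6 to 326. In these 3 lists 10 or more members had group means below the median gene in every group. For 12 epithelial genes the sum was 126 to 790 on neural and 129 to 359 on other arrays, with the highest value on a neuron-primed array. For 11 sensory neuron genes it was 114 to 753 and 131 to 502, and for 13 skeletal muscle genes 111 to 156 and 92.1 to 127. The part of these cell types in the results was not tested. In bulk RNA, fewer cells of a type and less RNA per cell cannot be told apart.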

How the data were processed

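RNA was measured on 16 single-colour Affymetrix arrays. The authors deposited 1 intensity per probe set and array, made with RMA per the submitters' processing notes, without a version. RMA removes background, gives the arrays a common distribution and summarises each probe set, so a shift of most genes in 1 direction would be lost. The deposited intensities span 1.49 to 31600, a linear scale, so log2 was taken, without an offset or a filter. Arrays have no read depth; their number limits the precision.

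Of 45101 probe sets, 34958 carried a single symbol, 932 several and 9211 none, and the first were used, with 99.4% updated through Entrez identifiers. Each of 18194 genes is represented by its brightest probe set over all arrays, and for 1540 genes this can match other genes. Some genes on the lists are not reported here.

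Group means were modelled with limma 3.58.1 (lmFit, eBayes; R 4.3.3) on all 16 arrays, with two-sided tests and Benjamini-Hochberg adjustment over all genes. The contrasts were neural minus other arrays, the difference within each side, and the 4 single differences. Separate fits used 8 arrays each. The members, gene lists and tests were chosen with earlier results of these data known. Named genes are the 10 largest set-apart rises and falls, up to 3 called members of each list, up to 3 calls each way within a side, and markers; the others are examples picked with their values in view. In simulated data for the contrast between the sides over 18194 genes, 21 of 50 changed genes were called at a log2 change of 1, 43 at 2, 49 at 3 and 48 at 4, all being brighter than the median gene.

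The alternatives were 3 other scalings, a block for the replicate number, an offset of 16, leaving out dim genes, 2 other ways to pick probe sets, other eBayes settings, array weights, Xist or the Gapdh ratio as a covariate, and leaving out each array. Replicate numbers did not pair the samples, as the closing part describes.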

Additional observations from a re-analysis of the deposited data

Results flagged for a closer look

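Single arrays stood far from the other 3 of their group in 10 of 216 groups of values examined, where chance gives about 1 in 20. The gap to the nearest array, as a share of the group's range, is given for each. Neuron-primed replicate 1 had Sox10 at 4.30 against 8.07 to 8.27 (gap 0.95) and Fgd5 at 2.89 against 7.95 to 8.71 (gap 0.87). Unprimed replicate 4 had Mycn at 8.61 against 9.23 to 9.33 (gap 0.86), Mef2c at 6.18 against 7.45 to 7.61 (gap 0.891) and Gins2 at 9.40 against 8.83 to 8.88 (gap 0.913). Mesenchyme-primed replicate 4 had Gins2 at 7.70 against 7.01 to 7.03 (gap 0.958), and mesenchyme-primed replicate 3 had Cers4 at 8.54 against 7.24 to 7.43 (gap 0.854). Glia-primed replicate 4 had Unc5b at 8.63 against 7.52 to 7.68 (gap 0.857) and a first principal component of 46.5 against 19.4 to 22.6 (gap 0.884). Neuron-primed replicate 2 had Dpysl3 at 9.66 against 8.84 to 8.95 (gap 0.868).

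The neural conditions differed from each other in Mef2c, with glia-primed minus neuron-primed at 4.23, and in Vat1l, at -2.76, both by limma's test of the difference itself.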

How the results depend on the processing

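The count of genes called between the sides was 126 to 197 over the 11 alternatives other than centring on housekeeping genes and leaving out arrays, against 161, and 101 to 157 of the 161 were among them. It was 248 with each array centred on housekeeping genes, and 116 to 301 with 1 array left out, the highest without neuron-primed replicate 1. The set-apart count of 88 ranged from 60, with 16 added to each value, to 116, with housekeeping centring, and from 68 to 134 with 1 array left out. Genes called between mesenchyme-primed and unprimed cells, 4 in the report, numbered 2 with quantile normalization, 2 with housekeeping centring, 0 with 16 added, 1 with trend and robust eBayes, 9 with array weights, 1 with Xist and 1 with the Gapdh ratio as a covariate, and 0 to 3 with 1 array left out. Between glia-primed and neuron-primed cells the count was 2 to 7 with 1 array left out. The 6 genes shared by glia-primed minus unprimed and neuron-primed minus mesenchyme-primed became 3 under quantile normalization, 3 under cyclic loess, 3 under housekeeping centring and 0 to 13 with 1 array left out; the 5 of the other pairing became 0 to 13 with 1 array left out. Of the single genes named, over all alternatives 66 differences within a side lost their call. Of 45 named genes called between the sides, 17 lost that call in at least 1 alternative and 28 in none, with 167 calls lost among 1254 values; 20 were lost for Msx2, 20 for P4ha1, 19 for Cnp, 18 for Pcsk1n, 16 each for Bmp5, Cnn1 and Thbs1 and 14 for Mthfd2. Over all alternatives 30 differences between the sides moved by more than the spread between replicates, and no called difference changed sign. The causes were not tested.

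Same-numbered arrays did not deviate together: over 24 pairs the correlation of deviations from group means was -0.0671 to 0.0641, with 0 over 0.1, and 2 of 16 arrays were best matched by their own number. With the replicate number as a block, 128 genes were called between the sides, 120 of them among the 161, 78 were set apart, and the genes shared in both disjoint pairings numbered 0 and 0. Within a side the block gave 2 calls between glia-primed and neuron-primed cells and 6 between mesenchyme-primed and unprimed cells.

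Signal over background was not measured, and changes near 2-fold were often missed at this size, with 21 of 50 simulated ones called.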

Other observations

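Genes of lipid handling outside the lists also appeared among those called between the sides, and were picked here after their values were seen, so they support no theme. Idh1, which supplies cytosolic NADPH, differed by -1.55 (SE 0.17, on a probe set that can match other genes), Sgpp1, a sphingosine phosphate phosphatase, by -2.77 (SE 0.48, with 2 of its 3 probe sets lower), Lipg, a secreted lipase, by -2.17 (SE 0.45, likewise) and Pcyt2, of phosphatidylethanolamine synthesis, by -1.45 (SE 0.26). Lbr, a nuclear membrane protein with sterol reductase activity, differed by -0.95 (SE 0.17). Plin2, which coats lipid droplets, went the other way, with 1.39 (SE 0.26).

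Of genes called between the sides that were not set apart, 5 are given by group mean as examples, also picked after their values were seen. Itgb1, the beta-1 integrin, had group means of 8.25 in unprimed, 7.63 in mesenchyme-primed, 9.15 in glia-primed and 9.53 in neuron-primed cells. Rhob, a small GTPase, was at 9.54, 10.87, 11.36 and 11.04 in the same order, with mesenchyme-primed cells near the neural ones. Efnb2, an ephrin ligand, was at 9.11, 8.52, 7.57 and 8.42, with glia-primed cells the lowest and neuron-primed cells near mesenchyme-primed ones. Mmp9, a matrix protease, was at 3.85, 3.20, 4.57 and 6.50, and Nfkbia, the NF-kappa-B inhibitor, at 5.75, 7.05, 7.45 and 8.43.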
